A study of Rattus norvegicus with 8 samples.

Results

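Cd59 was read at 5 polyadenylation sites, of 73922 sites in all, in rat hypothalamus. Every site that the table assigns to the symbol Cd59 was taken, and together they held 1008 of 13341135 reads. The libraries came from Whole Transcriptome Termini Site sequencing (WTTS-seq), which reads the 3′ ends of polyadenylated RNA, so that a read count follows the number of 3′ ends and does not grow with transcript length. The animals were adult male Long-Evans rats, 4 of a control group, kept on standard rodent chow, and 4 of an obesity group, given free access to a high fat diet, and tissue was collected after 36 days on either diet. Each rat gave 1 library, and the libraries held 1417531 to 1957726 reads. Values of single libraries are given below in the order of the library number, 1 to 4, in each group. The labels call the diet group diet-induced obesity and give no body weights.

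Cd59 was chosen by its own values in this contrast, as 1 of its sites stood out when all sites were compared between obesity and control. That site, the fourth, had an edgeR adjusted p of 0.0206 in a fit that takes the library number as a block, and 1.00 without the block. In the blocked fit 0.00135% of all sites were called lower at an adjusted p under 0.1, which is this site alone. The gene total had an adjusted p of 0.0517 with the block, where 0.277% of 12255 genes were called in either direction, and 0.921 without it (edgeR). All values of Cd59 in obesity against control are therefore given as a description, without a test.

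Cd59 encodes a small cell surface glycoprotein held in the outer leaflet of the plasma membrane by a glycosylphosphatidylinositol (GPI) anchor. It binds the late complement components C8 and C9 while they assemble and so keeps the membrane attack complex from opening a pore in the cell's own membrane. It is made by blood cells, endothelium and cells of the nervous system. Where a gene has several polyadenylation sites, cleavage at one or another within the last exon gives messages with the same coding region and a shorter or longer 3′ end, while cleavage further upstream can leave part of the coding region out.

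The sites lay on the plus strand of chromosome 3 (Rnor_6.0), all under gene9265 and transcript rna16220, and 0 sites of Cd59 lay on the other strand. They are numbered here in the direction of transcription. Sites 1 and 2, at positions 94011326 and 94011369, were 43 bases apart and 17542 and 17499 bases before the last site. Site 3 lay at 94028119 (cluster 94028115 to 94028141), site 4 at 94028655 (94028637 to 94028662) and site 5 at 94028868 (94028852 to 94028875). The last 3 sites thus fell within 749 bases, with 213 bases between sites 4 and 5. No sequence or gene model of this build was used, so the sites were not classed as exonic or intronic and A-rich sequence beside them was not looked for. In the newer GRCr8 assembly RefSeq names the gene Cd59b, with Cd59 as a synonym borne by 1 gene, and gives it a length of 18482 bases.

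Cd59 was a moderately abundant gene in this tissue, with more reads than 83.6% of genes. Its 5 sites compared with a median of 2 sites per gene. Site 5 had the most reads over the 8 libraries, 423 or 42% of the gene, followed by site 4 with 363 or 36%. Site 3 had 146 reads, and the upstream sites 1 and 2 had 40 and 36. The lowest total of any listed site was 30 reads, so sites 1 and 2 stood just above it.

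Within libraries, the order of the sites was tested between neighbours in mean abundance, over 4 pairs of sites and by 2-sided exact sign-flip permutation over 8 libraries. The order was taken from these same libraries, so the p-values do not test an order fixed beforehand. Site 4, by which Cd59 was chosen, is also among the sites compared. The test treats the 8 libraries as independent, although deviations of same-numbered libraries correlated at 0.218 to 0.32 over all genes. The p-values are therefore a description. Site 4 exceeded site 3 in 6 of 8 libraries, by 1.39 ± 1.35 on the log2 scale (SD, n = 8, exact permutation p 0.0312, adjusted 0.0781). Site 3 exceeded site 1 in 6 of 8 libraries, by 2.09 ± 2.14 (SD, n = 8, exact permutation p 0.0391, adjusted 0.0781). Neither passed an adjusted p of 0.05. The smallest p of this test is 0.0078.

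Sites 5 and 4 did not differ beyond their spread over all libraries, at 0.59 ± 1.31 on the log2 scale (SD, n = 8, exact permutation p 0.25, adjusted 0.333). This pooled ratio joined opposite orders. Site 5 had more reads than site 4 in 1 of 4 control libraries and in 4 of 4 obesity libraries, with mean log2 ratios of -0.54 and 1.72. Sites 1 and 2 did not differ beyond their spread either (exact permutation p 0.734, adjusted 0.734).

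Site 4 carried the largest difference in reads between the groups. It had 46, 123, 75 and 52 reads in the control rats, against 7, 32, 18 and 10 with the high fat diet. Every obesity library was below every control library. Scaled to the library size adjusted by the trimmed mean of M-values (TMM), as CPM (reads per 1e+06 reads), the means at site 4 were 46.5 ± 20.3 and 10.2 ± 8.25 (SD, n = 4), the control mean being 4.55-fold higher. Groups that do not overlap, with obesity lower, were found at 1.69% of all sites. Obesity library 2 was the highest of its group, and without it the obesity mean was 6.23 ± 2.63 CPM (SD, n = 3) and the fold 7.47. Leaving out the highest library of the lower group can only raise the fold. The log2(CPM + 1) difference was -2.24 with all libraries, -2.67 without obesity library 2 and -1.93 without obesity library 1.

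Site 5, only 213 bases further on, had group means close to each other over all 4 libraries of each group. It had 17, 69, 72 and 58 reads in the control rats, against 31, 82, 58 and 36 with the high fat diet. The groups overlapped through control library 1, at 9.57 CPM the lowest of all, and obesity library 2, at 56.8 CPM the highest. The other control libraries had 38.2 to 52.9 CPM and the other obesity libraries 17.6 to 29.4. The control mean was 35.1 ± 18.2 CPM and the obesity mean 31 ± 17.9 (SD, n = 4). The obesity library had the lower level in 2 of 4 pairs of the same number. Without control library 1 the control mean was 43.6 ± 8.06 (SD, n = 3), and without obesity library 2 the obesity mean was 22.4 ± 6.19 (SD, n = 3). With all libraries, the difference of 4.11 CPM between the means was smaller than the SD of either group.

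Site 3 resembled site 4 in direction. It had 48, 16, 18 and 33 reads in the control rats, against 7, 19, 1 and 4 with the high fat diet. Obesity library 2 reached into the control range, and the other 3 obesity libraries lay below it. The means were 17.8 ± 8.07 CPM and 4.97 ± 5.64 (SD, n = 4), 3.58-fold higher in control. Obesity library 2 had 13.2 CPM, and without it the obesity mean was 2.24 ± 1.73 CPM (SD, n = 3) and the fold 7.95. Without control library 1, the highest of its group, the control mean was 14.7 ± 6.4 CPM (SD, n = 3), against 4.97 in obesity. The log2(CPM + 1) difference was -2.02 with all libraries, -2.59 without obesity library 2 and -1.51 without obesity library 3.

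The upstream sites were too sparse for a comparison. Site 1 had 22, 3, 3 and 3 reads in the control rats, against 0, 0, 2 and 7 with the high fat diet. Site 2 had 13, 4, 0 and 4 reads in the control rats, against 8, 3, 2 and 2 with the high fat diet. Control library 1 gave most of the control reads at both. A count of 0 allows up to 3 reads, which for site 1 is 1.7 and 2.08 CPM in obesity libraries 1 and 2, and for site 2 is 2.2 CPM in control library 3. These limits and the intervals below cover counting error only, since the labels name PCR amplification and no molecular identifiers.

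**Figure D1:**
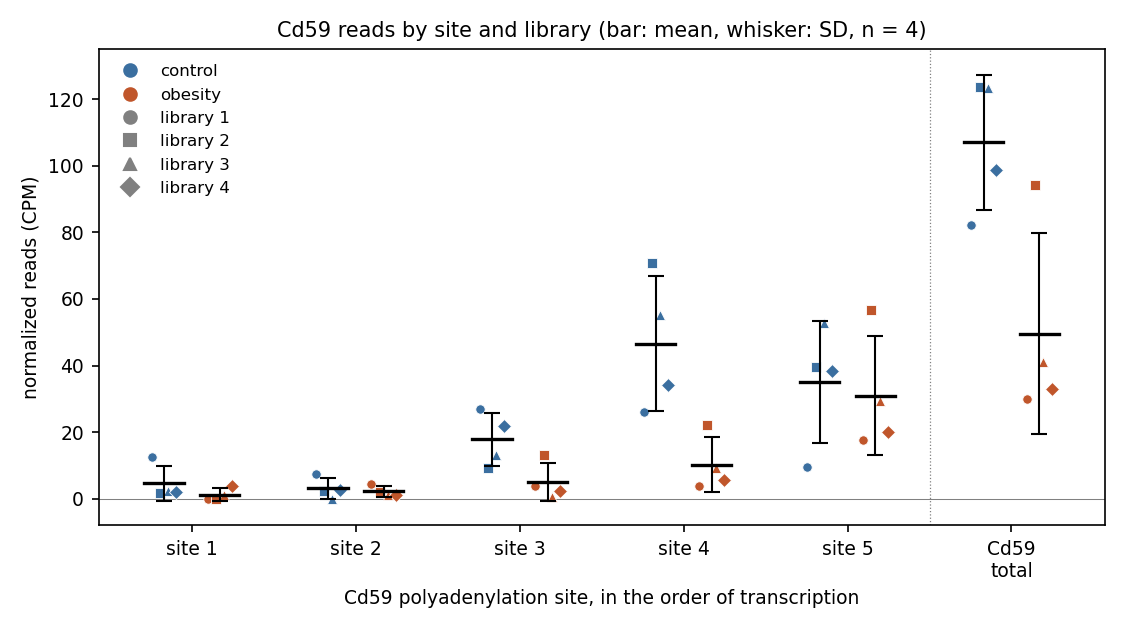
Normalized reads in CPM (vertical axis) at each Cd59 site and for the gene total (horizontal axis) in 4 control and 4 obesity libraries; symbols mark the library number, the bar is the mean and the whisker the SD. At site 4 the control libraries lie at 25.9 to 70.8 CPM and the obesity libraries at 3.96 to 22.2, while at site 5 the groups overlap.

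Summed over its sites, Cd59 had 146, 215, 168 and 150 reads in the control rats, against 53, 136, 81 and 59 with the high fat diet. The raw reads of the groups did not overlap. After scaling they did, as obesity library 2, at 94.2 CPM, stood above control library 1, at 82.2. The control mean of 107 ± 20.2 CPM was 2.16-fold that of 49.6 ± 30.1 in obesity (SD, n = 4), and the obesity library was lower in 4 of 4 pairs of the same number. Site 4, singled out with the number as a block, counts in this total, so the order in pairs follows in part from the choice. Without obesity library 2 the obesity mean was 34.7 ± 5.67 (SD, n = 3). In bulk tissue, fewer cells that express the gene and less RNA per cell cannot be told apart.

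Most of the difference in the total lay upstream of the last site. Of 57.4 CPM between the group means, 53.3 CPM or 92.8% was at sites 1 to 4 and 4.11 CPM at site 5. Site 4, by which Cd59 was chosen, is among sites 1 to 4, so this split follows in part from the choice. It also depended on obesity library 2. Without that library the site 5 means were 35.1 CPM in control and 22.4 in obesity, a larger part of the difference in the total. Sites 1 to 4 together held 129, 146, 96 and 92 reads in the control rats, against 22, 54, 23 and 23 with the high fat diet. The mean of this sum was 71.9 ± 9.59 CPM in control, against 18.6 ± 12.5 in obesity (SD, n = 4), and the groups did not overlap. Without obesity library 2 the obesity mean was 12.3 ± 0.637 CPM (SD, n = 3), and the control mean was 5.83-fold that value in place of 3.87-fold. As at site 4, leaving out the highest obesity library can only raise the fold.

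The use of sites within the gene was correspondingly different. Of all Cd59 reads, site 5 held 31.3% ± 13.8 in control (SD, n = 4) but 62.9% ± 5.93 in obesity (SD, n = 4), which is 31.5 percentage points more. The share was 11.6% in control library 1 (Wilson 95% interval 7.4% to 17.9%), 32.1% in library 2 (26.2% to 38.6%), 42.9% in library 3 (35.6% to 50.4%) and 38.7% in library 4 (31.2% to 46.7%). In the same order in obesity it was 58.5% (45.1% to 70.7%), 60.3% (51.9% to 68.1%), 71.6% (61% to 80.3%) and 61% (48.3% to 72.4%). The 4 obesity shares lay close together and above the highest control share, although the intervals of obesity libraries 1 and 4 reach below the upper bound of control library 3. Shares that do not overlap, higher in obesity, were found at 1.32% of 59843 sites in genes with 2 or more sites. Site 4, by which Cd59 was chosen, counts in the total, so part of the rise at site 5 follows from that choice. The rate is given as a background and not as a test. Without control library 1 the control share was 37.9% ± 5.43 (SD, n = 3).

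Site 4 was the mirror image. Its share was 42% ± 11.6 in control (SD, n = 4) but 19% ± 4.78 in obesity (SD, n = 4), with control libraries at 31.5% to 57.2% and obesity libraries at 13.2% to 23.5%. Shares lower in obesity without overlap were found at 1.45% of those sites. As Cd59 was chosen by site 4, its lower share is not a separate observation. Site 3 held 18.3% ± 11.6 and 8.8% ± 5.99 (SD, n = 4), and here the groups overlapped. Sites 1 and 2 together held 8.42% ± 10.4 and 9.37% ± 6.79 (SD, n = 4), with 24% in control library 1.

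**Figure D2:**
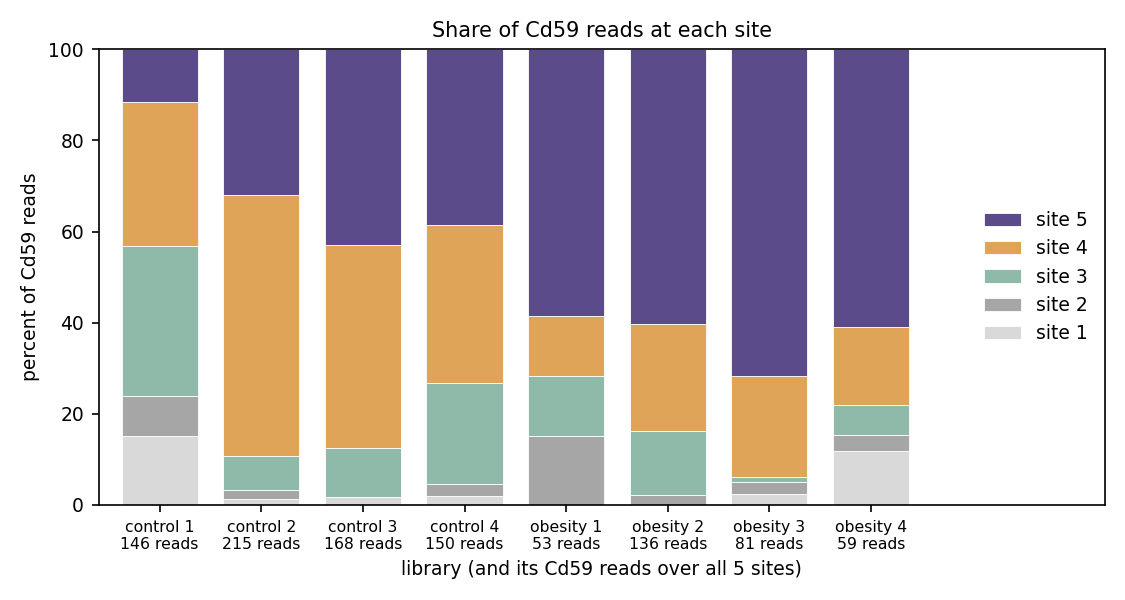
Percent of Cd59 reads at each of the 5 sites (stacked, vertical axis) in each library (horizontal axis, with its Cd59 reads). Site 5 takes 58.5% to 71.6% in the obesity libraries and 11.6% to 42.9% in the control libraries.

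The ratio of the last 2 sites needs no scaling to library size, but it holds the reads of site 4, by which Cd59 was chosen. Site 5 had 0.37, 0.561, 0.96 and 1.12 reads per read of site 4 in control libraries 1 to 4. In obesity libraries 1 to 4 it had 4.43, 2.56, 3.22 and 3.6. The means were 0.751 ± 0.345 and 3.45 ± 0.779 (SD, n = 4), and obesity library 2, which had the highest level of Cd59 in its group, also lay above every control library in this ratio.

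**Figure D3:**
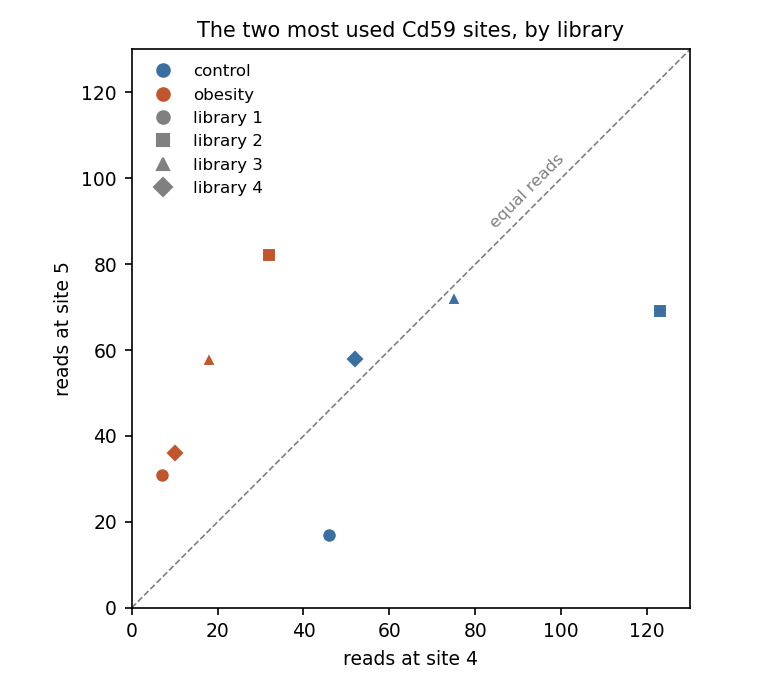
Reads at site 5 (vertical axis) against reads at site 4 (horizontal axis) in each library, with the line of equal reads dashed. The 4 obesity libraries lie above the line at 7 to 32 reads of site 4, and 3 of 4 control libraries lie below it.

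How the sites varied together was described over the 8 libraries, which share depth and preparation within each library. Sites 4 and 5 deviated together within groups, with a Pearson r of 0.824 on log2(CPM + 1), and 0.494 over all libraries. Sites 3 and 4 had an r of 0.682 over all libraries and 0.16 within groups. Site 5 went against the upstream sites within groups, with an r of -0.719 with site 1 and -0.682 with site 2, values that rest on few reads.

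The deviation of each library from its group mean, on log2(CPM + 1), was also set beside that of the same number in the other group. At site 4, which the fit with the number as a block had singled out, so that a likeness by number follows from the choice, both libraries of each number lay on the same side of their group means. The gene total went opposite ways for number 3, at 0.22 in control and -0.11 in obesity. Site 5 did so for number 4, at 0.34 and -0.44, and site 3 for number 2, at -0.77 and 1.72, and for number 4, at 0.38 and -0.41. What same-numbered rats had in common is not given in the labels.

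Complement inhibitors other than Cd59 were examined next, to set genes of the same task beside it. Where 2 means stand side by side from here on, the control mean comes first. Of 17 listed, 9 could be analysed, and 0 passed an adjusted p of 0.1 with or without the block (edgeR). Of all 12255 genes, 0% passed without the block and 0.277% with it. A count of 0 in a short list is therefore near the background, here and in the lists below. Of the 9 genes, 7 had a higher and 2 a lower fitted level with the high fat diet, and the median log2 fold change was 0.27, against 0.00 over all genes. By unadjusted p under 0.05 there were 2, both higher, or 22.2% of the 9 against 5.12% of all genes, and with the block 3, or 33.3% against 10.9%.

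Csmd1, Csmd2 and Csmd3 are CUB and Sushi domain genes, which encode large membrane proteins and were listed here with the complement inhibitors. Csmd2 had 186, 170, 164 and 204 reads in the control rats, against 248, 207, 417 and 320 with the high fat diet. The groups did not overlap in CPM, at 133.5 ± 16.9 and 204.1 ± 33.8 (SD, n = 4), as for 1.68% of all genes with obesity higher. Csmd2 did not pass the test, at log2 fold change 0.61 (SE 0.21, edgeR adjusted p 0.921, or 0.146 with the block). Csmd1 had control and obesity means of 781 ± 106 and 943 ± 133 CPM, and Csmd3 335 ± 76.4 and 398 ± 125 (SD, n = 4), with log2 fold changes of 0.27 (SE 0.18) and 0.25 (SE 0.24).

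Among the cell surface inhibitors that act on the C3 convertases, Cd46 had 7, 9, 4 and 2 reads in the control rats, against 5, 17, 30 and 22 with the high fat diet. The groups overlapped through obesity library 1, and Cd46 did not pass the test either (log2 fold change 1.64, SE 0.66, edgeR adjusted p 0.921, or 0.389 with the block). Cr1l, the rodent regulator also called Crry, had 4 to 16 reads per library and a log2 fold change of 0.27 (SE 0.68). Susd4, a Sushi domain protein, had 113 ± 8.01 and 116 ± 12.3 CPM (log2 fold change 0.04, SE 0.21).

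The remaining inhibitors are secreted. Clusterin (Clu), which like Cd59 acts on the late complex, had means of 318 ± 165 and 235 ± 57.1 CPM (SD, n = 4), with 120 reads in control library 1 against 428 to 680 in the other control libraries. Its log2 fold change was -0.44 (SE 0.4, edgeR adjusted p 0.961). Vitronectin (Vtn), which also binds the late complex, had 3 to 10 reads per library. Serping1, the C1 inhibitor, had 0, 1, 0 and 4 reads in the control rats, against 16, 0, 6 and 4 with the high fat diet, too few for a comparison.

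**Figure D4:**
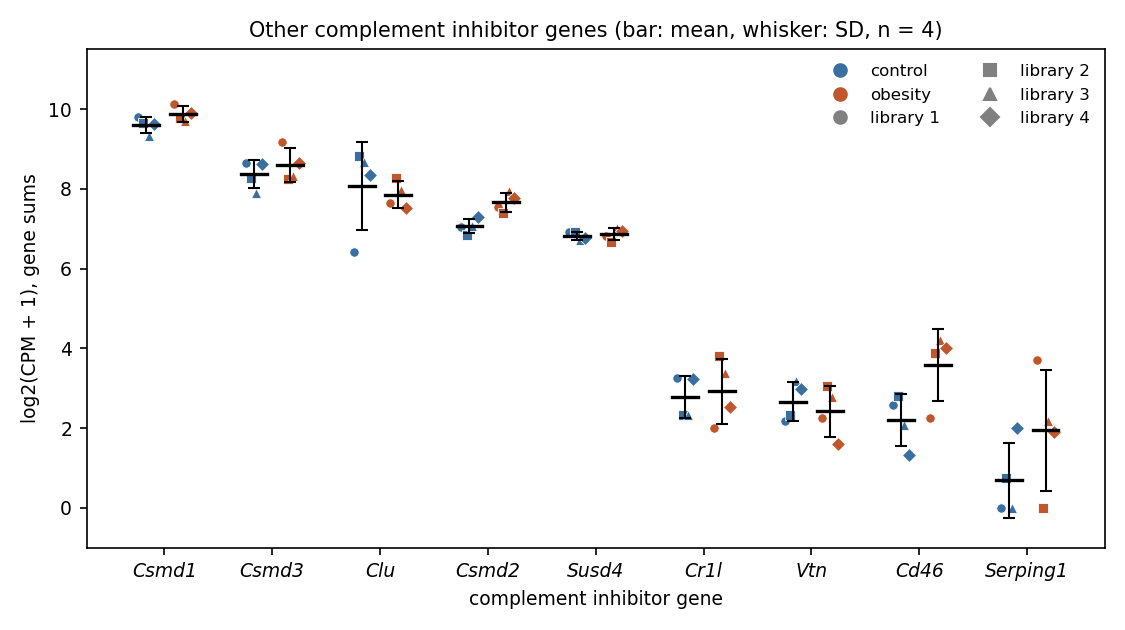
Level of 9 other complement inhibitor genes as log2(CPM + 1) of gene sums (vertical axis), by gene (horizontal axis) in 4 control and 4 obesity libraries; the bar is the mean and the whisker the SD. Csmd2 is the gene whose groups do not overlap, at 133.5 ± 16.9 CPM in control and 204.1 ± 33.8 in obesity.

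The complement components are the proteins that these inhibitors restrain. Of 27 listed, 9 could be analysed (C1qb, C2, C3, C7, C8g, Cfb, Cfp, Masp1 and Colec12), and 0 passed an adjusted p of 0.1 with or without the block (edgeR). At an unadjusted p under 0.05 there were also 0 of 9 in either fit, where all genes had 5.12% and 10.9%. C8g, the small subunit of C8, had means of 13.4 ± 3.4 and 20.6 ± 8.9 CPM (SD, n = 4). Properdin (Cfp), which stabilizes the alternative pathway convertase, had 21.9 ± 6.42 and 23.4 ± 4.85, and factor B (Cfb) 11.6 ± 3.52 and 6.6 ± 6. The receptor list left 2 of 10 genes. C3ar1, the receptor for the C3a peptide on microglia, had 12.1 ± 1.57 and 20.6 ± 8.08 CPM (log2 fold change 0.77, SE 0.44, adjusted p 0.923), and C1qbp 51.5 ± 16.3 and 39.4 ± 15.7.

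Relatives of Cd59 with the same three-finger fold form the Ly6/uPAR family, and 5 of 27 could be analysed. Ly6h and Lynx1, which bind nicotinic acetylcholine receptors in neurons, had lower means in obesity, without passing the test. For Ly6h the means were 88 ± 41.4 and 53 ± 23 CPM, and the log2 fold change was -0.74 (SE 0.39, edgeR adjusted p 0.921, or 0.224 with the block). Lynx1 had 76.7 ± 26 and 57.4 ± 26.2 (log2 fold change -0.42, SE 0.34), and Lypd1 47.8 ± 15.7 and 51 ± 17.8 (SD, n = 4).

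The GPI anchor of Cd59 is built and attached in the endoplasmic reticulum. Of 33 genes of its synthesis and remodelling, 22 could be analysed, and 0 passed an adjusted p of 0.1 with or without the block (edgeR). The median log2 fold change was 0.13. By unadjusted p under 0.05 there was 1 without the block, or 4.55% against 5.12% of all genes. With the block there were 4, or 18.2% against 10.9%. Tmed10, a cargo receptor that carries anchored proteins to the Golgi, had the smallest unadjusted p among the lower genes. Its means were 96.1 ± 26.4 and 61.4 ± 17.8 CPM (log2 fold change -0.65, SE 0.28, edgeR adjusted p 0.921). Gpaa1, a subunit of the transamidase that attaches the anchor, had 172 ± 45.6 and 238.5 ± 68.3 CPM (log2 fold change 0.47, SE 0.25, edgeR adjusted p 0.921). Tmem8a, a lipase that trims the anchor, had 70.9 ± 13.8 and 99.1 ± 17.7.

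Of 53 other GPI-anchored proteins of brain, 42 could be analysed and 0 passed an adjusted p of 0.1 with or without the block (edgeR). The median log2 fold change was 0.06. By unadjusted p under 0.05 there were 3 without the block, or 7.14% against 5.12% of all genes. With the block there were 4, or 9.52% against 10.9%. Sema7a, an anchored semaphorin, had 46, 34, 35 and 28 reads in the control rats, against 10, 19, 19 and 17 with the high fat diet. Its groups did not overlap in CPM, as for 1.77% of all genes with obesity lower, and its log2 fold change was -1.2 (SE 0.41, adjusted p 0.921, or 0.269 with the block). Cdh13, a cadherin without a cytoplasmic tail, had 88.7 ± 17.6 and 145 ± 37.9 CPM (log2 fold change 0.71, SE 0.25, adjusted p 0.921). The most abundant, the adhesion genes Lsamp and Ntm, had log2 fold changes of 0.19 (SE 0.18) and 0.09 (SE 0.2).

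Over these 6 lists, 0 of 89 genes passed an adjusted p of 0.1 in edgeR without the block, with it, or by the DESeq2 Wald test. Of all 12255 genes, 0, 34 and 4 passed in the same order. In simulated data with effects of the library number, of a size set by hand, edgeR recovered 0% of 2-fold changes without the block and 55.5% with it. For 4-fold changes the values were 87% and 95.5%. Without number effects, 59.5% and 59% of 2-fold changes were recovered. Genes with few reads were not among those changed, so the recovery for scarce listed genes was not simulated. The counts of 0 thus do not show that these genes were unchanged. At an unadjusted p under 0.05 there were 6 without the block, 3 higher and 3 lower, or 6.74% of the listed genes against 5.12% of all genes. With the block there were 12, or 13.5% against 10.9%.

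The nearest genes on chromosome 3 were read in the same way. Fbxo3, an F-box gene whose last site ends 17280 bases before the first Cd59 site on the same strand, had means of 54.4 ± 8.72 and 51.4 ± 19.5 CPM (SD, n = 4), and its log2 fold change was -0.07 (SE 0.3). LOC100362814, on the opposite strand 29681 bases beyond site 5, had 236 ± 13.4 and 227 ± 23.7 CPM (log2 fold change -0.06, SE 0.19). Lmo2, a scarce gene with 1 to 11 reads per library, had means of 6.26 ± 2.32 and 2.64 ± 2.01 CPM (SD, n = 4) and a log2 fold change of -1.25 (SE 0.88), and Hipk3, further downstream, had a log2 fold change of -0.13 (SE 0.26). All 4 had an edgeR adjusted p of 0.942 or above, or 0.673 or above with the block. Within 20 kb on either side, 1 site without a gene was listed, on the minus strand 9331 bases after site 5, with 38 reads in all.

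The genes whose level was most like that of Cd59 over the 8 libraries were sought among 8301 genes with a mean of at least 10 CPM, as a description. By Pearson r of log2(CPM + 1) these were Smim15 at 0.976, Sec11c, a signal peptidase subunit, at 0.975, and Cnnm1 at 0.973. The most opposed were Lrrn2 at -0.983, Sbf2 at -0.981 and Carf at -0.958. For comparison, the middle gene had an r of 0.04, 5% of genes exceeded 0.774 and 5% lay below -0.753. Within groups the values for these 6 genes were 0.929 to 0.981 and -0.977 to -0.881, on the same libraries by which the genes were picked. The means of Smim15 were 44.8 ± 3.23 and 23.4 ± 6.66 CPM (SD, n = 4), and those of Lrrn2 were 125 ± 10.6 and 170 ± 33.1. These genes were picked by likeness to Cd59, itself chosen by this contrast. Their group differences therefore follow from the picking and are not separate observations.

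The tissue label and the cell makeup were checked through 9 marker lists. The summed levels overlapped between the groups in each, and 0 markers passed an adjusted p of 0.1 with or without the block (edgeR). Of 13 hypothalamic neuron markers, 11 were read, with sums of 1235 to 1668 CPM in control and 1019 to 1305 in obesity. Oligodendrocyte markers were lower in 10 of 10 genes, with sums of 17589 to 23092 CPM in control and 13560 to 21309 in obesity, and a median log2 fold change of -0.2. Obesity library 2, the highest of its group for Cd59, also had the highest sum in its group for oligodendrocyte, astrocyte (2184 CPM), microglia (121 CPM) and anterior pituitary (127 CPM) markers, and obesity library 1, the lowest for Cd59, had the lowest sum for oligodendrocytes and microglia. Obesity library 2 was not the highest of its group in the other 5 lists, with 2675 CPM for neurons against 3342 in obesity library 1, and 1224 CPM for hypothalamic neurons against 1305 in obesity library 3. Its endothelial sum was 191 CPM against 221 in obesity library 4, which was also the highest of the group for red blood cell and choroid plexus markers. Astrocyte sums were 1901 to 2660 CPM in control and 1501 to 2184 in obesity, with 5 of 7 genes lower. Those of neurons were 2573 to 3280 and 2497 to 3342, with 3 of 6 lower, and those of endothelial cells 170 to 213 and 172 to 221, with 3 of 7 lower and Cldn5 at 0 in 3 or more libraries. Microglia sums were 75.8 to 146 and 47.3 to 121, with 2 of 5 lower. Red blood cell sums were 19.4 to 46.3 and 15 to 64 CPM from 2 genes, those of the anterior pituitary 17.9 to 56 and 6.13 to 127 from 3 genes with Gh1 at 0 in 3 or more libraries, and those of the choroid plexus 0 to 1.52 and 0 to 98 from 1 gene. The part of cell makeup in the Cd59 values was not tested.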

How the data were processed

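Per the file headers, the deposited values are raw mapped read counts per polyadenylation site, without normalization. The submitters' processing notes name Bowtie2 2.2.3 and Rnor_6.0. How reads were clustered into sites, how sites were assigned to genes and whether internal A-rich priming was removed are not given in the sources used here. Groups and library numbers came from the sample titles. A line without a site and 273 marks in the symbol field were not treated as genes. The lowest site total was 30 reads.

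CPM was computed with TMM factors of edgeR 4.0.16 in R 4.3.3, over all sites for Cd59 and over gene sums elsewhere. A gene sum adds the sites on the strand with most of its reads. Counts of all sites and genes were fitted with the edgeR quasi-likelihood F test (robust), with Benjamini-Hochberg adjustment over all features and a threshold of 0.1. DESeq2 1.42.0 served as an alternative. Site ratios had 0.5 reads added, and log2 CPM values 1 CPM. Scripts were tested on simulated data.

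Deviations from group means correlated at 0.218 to 0.32 between libraries of the same number and -0.168 to 0.041 between others. The library number was therefore taken as a block in a further fit, beside the main fit without it. Fold changes and their SEs come from the main fit, which ignores this likeness. So do the p-values of genes where the block is not named. What they had in common is not given in the labels. The lowest chi-square between libraries was 3.3 per site, above sampling noise, so all 8 were counted. Nothing says that rats were handled separately in preparation, and p-values measure the spread between these libraries.

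Cd59 and the lists were chosen with earlier results of these data known. Named genes were all complement inhibitors with a value, and in each other list those past the threshold, the 2 most abundant and the smallest unadjusted p in each direction. The 2 nearest genes on each side and the 3 most and least like genes were added.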

Additional observations from a re-analysis of the deposited data

Results flagged for a closer look

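Within each group of 4, a library was singled out when its gap to the nearest other library exceeded Dixon's 95% critical value for groups of this size. Chance alone exceeds it in about 1 in 20 groups of normally distributed values. Of 102 such checks over Cd59, named genes and marker sums, 8 singled out a library, where chance gives about 5.1. Several checks share the same reads, so neither number counts separate cases. Control library 1 accounted for 4, which apart from its anterior pituitary sum rest on the same reads at sites 1 and 2. At site 1 it had 12.4 CPM, against 1.73 to 2.2 in the other control libraries, which was 15.1% of its Cd59 reads against 1.4% to 2%. Sites 1 and 2 together held 24% of its Cd59 reads, against 1.79% to 4.67%. Its anterior pituitary markers summed to 56 CPM, against 17.9 to 22.7.

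In the obesity group, library 2 had 37.4 CPM over sites 1 to 4, where the others of its group had 11.6 to 12.9, and library 1 had 15.1% of its Cd59 reads at site 2, from 8 reads, against 2.21% to 3.39%. Ly6h had 18.7 CPM in obesity library 3, against 62.5 to 67.6. The choroid plexus sum, from Ttr alone, reached 98 CPM in obesity library 4, with 0 reads of Ttr in the other 3.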

How the results depend on the processing

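The count of list genes past the threshold was 0 under each of 13 alternatives, including the replicate block, the DESeq2 Wald test, another scaling, a low-count filter, sums over both strands and each library left out. Over all genes the block gave 34 calls, DESeq2 4 and the fit without obesity library 2 gave 1, against 0. For Cd59 the mean difference of pairs, used as the replicate block, equals the difference of group means by construction, at -2.24 on log2(CPM + 1) for site 4 and 31.5 percentage points for the share of site 5. Over 12 alternatives site 4 ranged from -2.67 to -1.93, site 3 from -2.59 to -1.51, the gene total from -1.59 to -1.05 and the share of site 5 from 25 to 35.4. Sums over both strands could not move any Cd59 value either, as 0 of its sites lay on the other strand. Scaling does not enter a share, so the range of the share came only from the libraries left out. The difference at site 5, -0.1, was smaller than its spread of 0.91 and ranged from -0.615 to 0.168, changing sign with the library left out. The log2 ratio of site 1 to site 2, -0.31, ranged from -0.757 to 0.228 over the libraries left out, and turned sign without obesity library 1 (0.228) or 2 (0.0452), with no call in any case. The other ratios kept their direction and stayed above an adjusted p of 0.05. Sites 1 and 2 had 0 to 22 reads per library, and what difference could be detected there was not tested.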
